A study of Mus musculus with 4 samples.

Results

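The contractile apparatus of vascular smooth muscle was examined at the chromatin of 10 genes of the 21938 protein-coding genes annotated on the main mouse chromosomes: Myh11, Acta2, Tagln, Cnn1, Lmod1, Myl9, Mylk, Smtn, Des and Synpo2. The genes were chosen by name, for what they encode, with earlier results of these data known. Every ATAC-seq peak that lay in the gene or within 20 kb of it was taken. The 4 deposited lists held 156 such peaks of 64360 in all, which merged into 108 separate regions. ATAC-seq marks accessible DNA by the cuts of the Tn5 transposase, and a peak is a stretch where cut fragments pile up above the local background.

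The nuclei came from the aorta of untreated mice at 60 days of age (P60). Control mice were Col3a1+/+. VEDS mice were Col3a1G938D/+, heterozygous for a glycine substitution in collagen III, and are a model of vascular Ehlers-Danlos syndrome (VEDS). Each genotype had 1 female and 1 male library, and each library pooled the aortas of 2 mice of the same sex. Libraries were made with a single-cell ATAC kit and analyzed in aggregate, so that the number of smooth muscle nuclei and the accessibility within each nucleus cannot be told apart.

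The lists differed widely in length: the VEDS male list held 41444 peaks and the control female list 21176, but the control male list 1236 and the VEDS female list 504. In each genotype 1 library thus carried nearly the whole list, a female in controls and a male in VEDS, so that genotype, sex and depth cannot be told apart. With 2 libraries against 2, the smallest 2-sided exact permutation p would be 0.333, and no test between genotypes was made. Fold enrichments and q values depend on the depth of their own library. The strength of peaks is therefore compared between lists only by presence and by rank, where the top 5 percent holds the peaks of highest −log10 q in that list. Fragments and fold enrichments at summits are given below to describe each library by itself. They are not compared between libraries, and a fragment there stands for a unit of the caller's pile-up.

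Contraction in smooth muscle rests on a myosin motor, actin filaments, the enzymes that switch the motor on, and the proteins that hold filaments to one another and to the cell edge. Many of the genes for these proteins are switched on by serum response factor (SRF) with its coactivator myocardin. SRF binds the CArG box, CC(A/T)6GG. MEF2 factors, relatives of SRF in the MADS-box family, bind a different A/T-rich site and also act in muscle, and AP-1, a dimer of FOS and JUN proteins, binds TGA(C/G)TCA in many cell types. All 3 consensus sequences were searched in the 300 bp around each summit, the point of deepest pile-up. Each reads as the same class of sequence on both strands, so a match on either strand was found.

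In the summit windows, CArG matches were present at 8 of the 10 genes, in 16 places, and all 16 lay inside a peak. Of these, 11 lay inside a peak of both long lists, those of the control female and the VEDS male library. They are shown here because the comparison of motif shares turns on them. Each is printed 5′ to 3′ on the strand of its gene with 10 bases on either side and the CArG match in capitals, with coordinates of build GRCm38.
Acta2, upstream, chr19:34265824-34265853 (minus strand): agctgccttcCCTTATAAGGttaaggttct
Cnn1, intron 1, chr9:22100116-22100145 (plus strand): agccgccgcgCCTTATAAGGcggccttggg
Mylk, intron 15, chr16:34921337-34921366 (plus strand): ttgcacacacCCTTATAAGGctactgaaat
Mylk, intron 18, chr16:34944950-34944979 (plus strand): tagttaactaCCTAAAAAGGcaaatgtccc
Mylk, intron 21, chr16:34958756-34958785 (plus strand): gcagttctgaCCTTTTATGGttgagtttct
Myl9, upstream, chr2:156775293-156775322 (plus strand): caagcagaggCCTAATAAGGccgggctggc
Lmod1, intron 1, chr1:135359189-135359218 (plus strand): tgctccttctCCTTTTAAGGcaaggtctga
Synpo2, intron 1, chr3:123184551-123184580 (minus strand): accgttgtgcCCTATTTAGGaatatttctt
Tagln, near the start, chr9:45936028-45936057 (minus strand): gtgtctttccCCAAATATGGagcctgtgtg
Tagln, upstream, chr9:45936151-45936180 (minus strand): agggtcctgcCCATAAAAGGtttttcccgg
Tagln, downstream, chr9:45920030-45920059 (minus strand): agcaacatgcCCTAAAATGGtcaaagaaaa
The palindrome CCTTATAAGG occurred at 3 different genes, upstream of Acta2, in the first intron of Cnn1 and in intron 15 of Mylk. CCTTTTATGG, read on either strand, occurred in 4 places, in intron 21 of Mylk, upstream of Tagln and in 2 peaks of Myh11 that only the VEDS male list held. CCTTTTAAGG occurred in 2 places on either strand, in intron 1 of Lmod1 and at Synpo2. The other CArG sequences each occurred in a single place on either strand.

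At the Acta2 gene an AP-1 match lay 12 bases from the CArG box, and in intron 18 of Mylk a MEF2 match lay 7 bases from it. Both whole summit windows of the VEDS male library are printed on the strand of the gene, with the matches in capitals, to show the spacing.
Acta2, about 10 kb upstream, chr19:34265692-34265991 (minus strand): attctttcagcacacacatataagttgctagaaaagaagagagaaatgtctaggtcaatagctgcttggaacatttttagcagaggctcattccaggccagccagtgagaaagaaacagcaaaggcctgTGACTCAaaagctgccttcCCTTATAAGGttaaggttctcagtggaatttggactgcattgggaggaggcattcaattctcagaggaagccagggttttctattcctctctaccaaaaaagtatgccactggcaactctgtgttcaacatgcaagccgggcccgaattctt
Mylk, intron 18, chr16:34944723-34945022 (plus strand): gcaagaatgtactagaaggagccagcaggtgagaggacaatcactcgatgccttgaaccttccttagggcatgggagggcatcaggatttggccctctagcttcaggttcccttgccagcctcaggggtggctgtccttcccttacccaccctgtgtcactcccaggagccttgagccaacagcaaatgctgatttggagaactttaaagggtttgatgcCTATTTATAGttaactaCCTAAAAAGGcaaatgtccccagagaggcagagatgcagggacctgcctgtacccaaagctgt
Another pair of CArG and AP-1 matches lay 64 bases apart in a peak of intron 1 of Synpo2 that only the VEDS male list held. No other summit window held a CArG match together with a MEF2 or AP-1 match.

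The 10 loci held 51 peaks in the control female list and 105 in the VEDS male list. The control male and the VEDS female lists held 0, and the peaks nearest to a member lay 96.2 kb from Cnn1 in the control male list and 30.3 kb from Des in the VEDS female list. The median locus held 4.5 peaks in the control female list and 7.5 in the VEDS male list, beside medians of 1 and 2 over all 21938 protein-coding genes. Corrected for the length of the locus, the medians were 4.34 peaks per 100 kb against 1.53 over all genes in the control female list, and 11.4 against 2.42 in the VEDS male list. Each of the 10 genes was above the median of all genes in both long lists, though the density ranged from 2.07 per 100 kb at Des to 10.8 at Lmod1 in the control female list. Des, Myl9 and Myh11 were the lowest of the 10 there. Synpo2 was the highest in the VEDS male list, with 17.5 per 100 kb. Peaks at promoters of neighbouring genes were counted in these densities, for the members and for all genes alike.

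**Figure D1:**
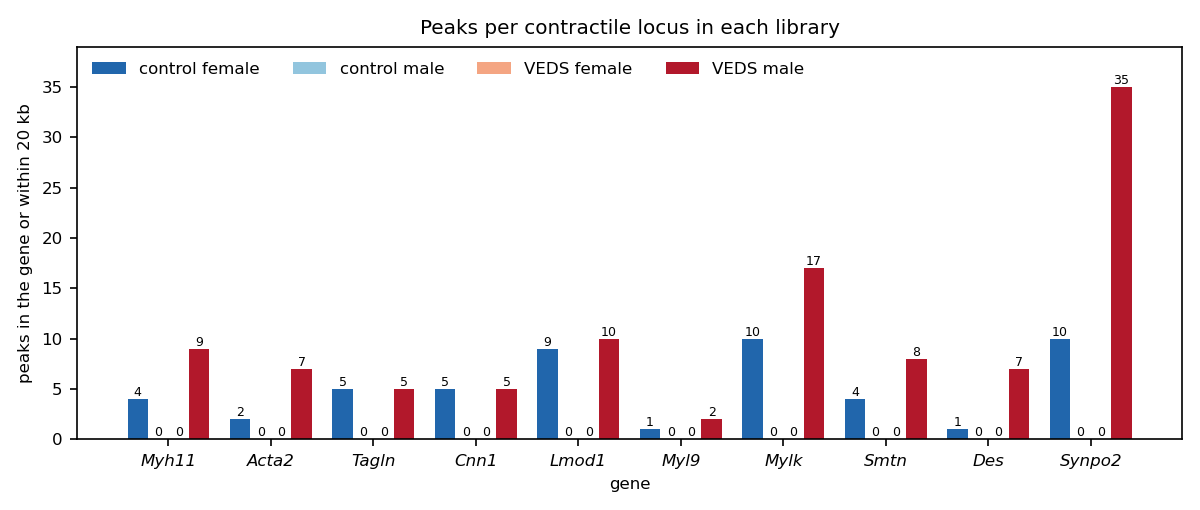
Number of peaks in each gene or within 20 kb of it (y axis), by gene (x axis) and library (bar color, with the count above each bar; 1 pooled library per bar, so no error bar). The control male and VEDS female bars are at 0 for all 10 genes, and the VEDS male bar is higher than the control female bar at 8 genes and equal at Tagln and Cnn1.

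A peak within 1 kb of an annotated start of the gene (a promoter peak) was present at 9 of the 10 genes in the control female list, where 44.9% of protein-coding genes had one. In the VEDS male list it was present at 10 of 10, beside 55.5% of all genes. In the control male list the count was 0, beside 1.34% of all genes, and in the VEDS female list 0, beside 1.37%. The long lists, too, held 0 peaks at these loci when cut to their 504 highest peaks, as many as the shortest list holds. The missing gene in the control female list was Des, described with the filament genes below. Of the 108 regions, 20 were promoter peaks of a member, 57 lay further inside the genes, 19 in the flanks, and 12 at promoters of neighbouring genes.

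**Figure D2:**
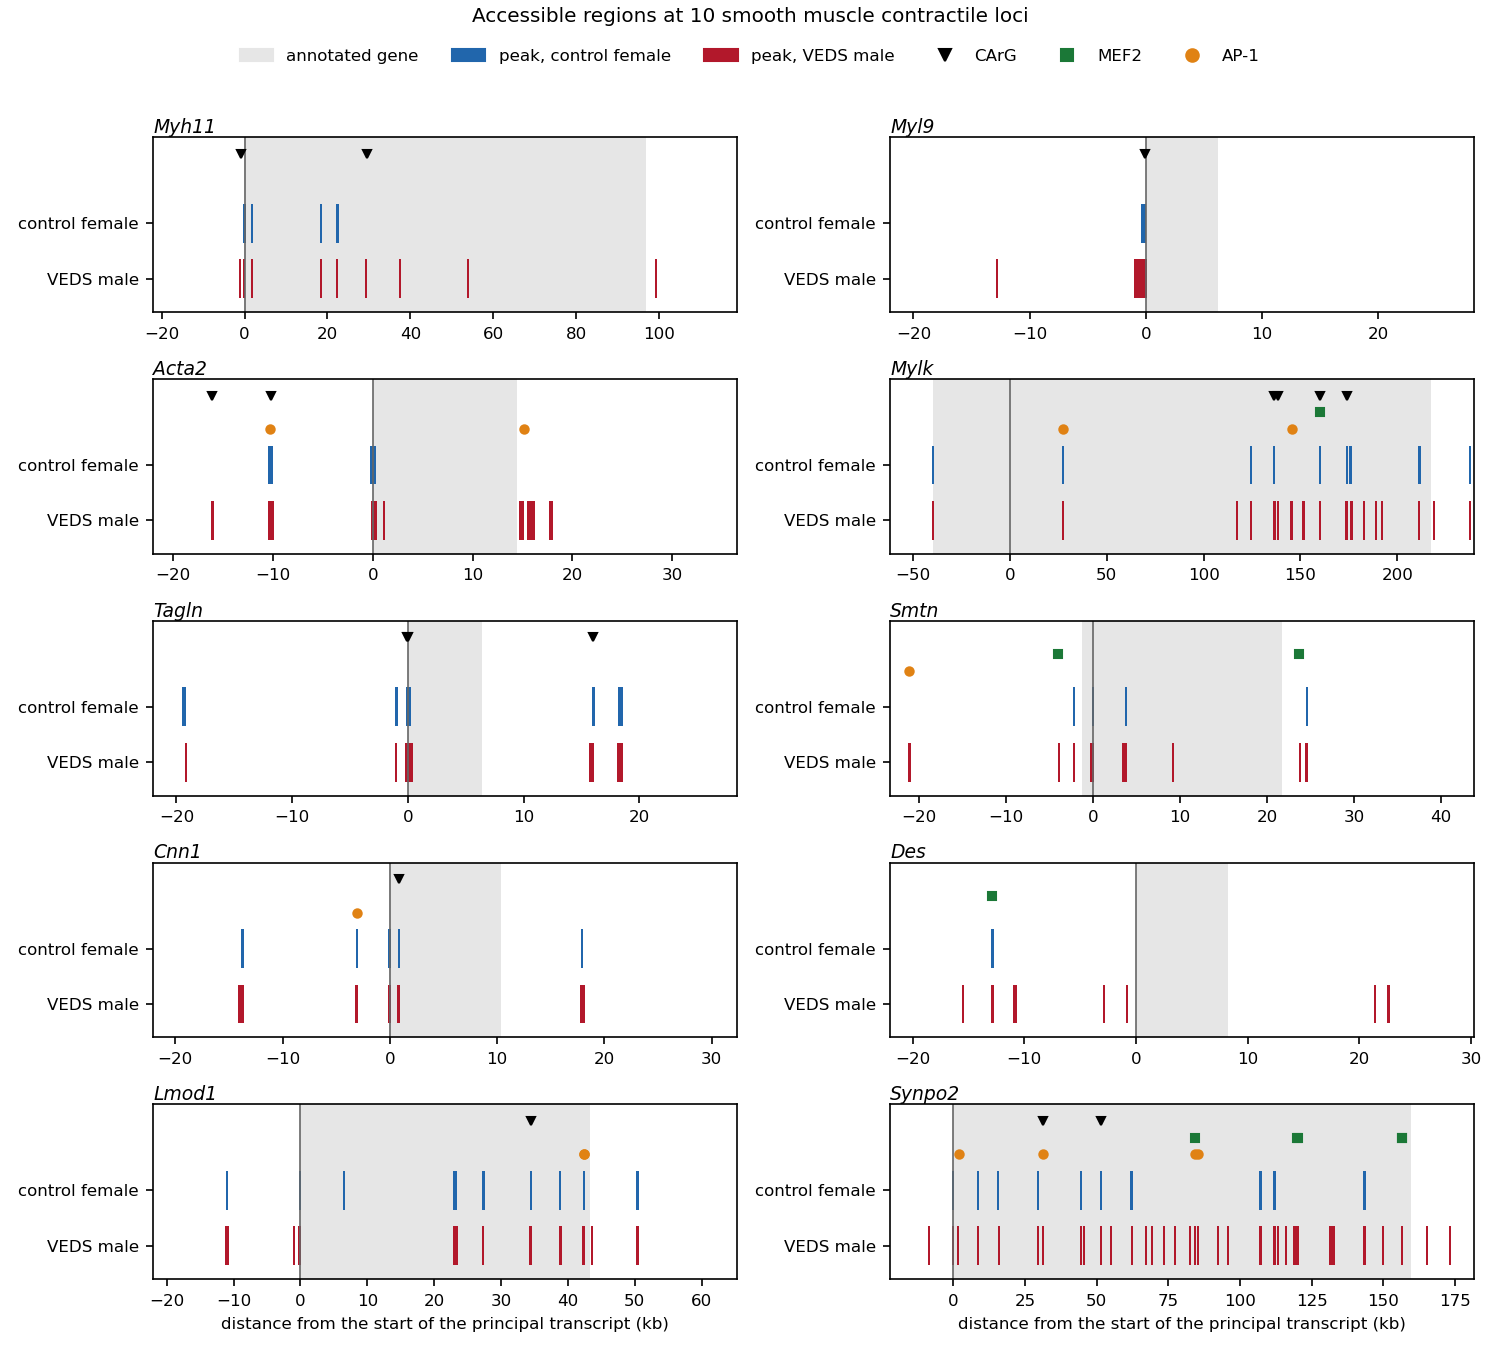
Peaks of the control female (blue) and VEDS male (red) lists along each locus, with the distance from the start of the principal transcript in kb on the x axis (negative is upstream), the annotated gene in gray and motif matches of the summit windows as symbols; narrow peaks are drawn slightly wider than scale so that they can be seen. The control female peaks nearly all lie above a VEDS male peak, most genes have a peak at distance 0, and Mylk and Synpo2 have most of theirs far inside the gene.

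The myosin motor and its switch were read from Myh11, the smooth muscle myosin heavy chain, Myl9, the regulatory light chain whose phosphorylation starts contraction, and Mylk, the kinase that phosphorylates it. Myh11 (chr16:14194535-14291372, minus strand) had 4 control female and 9 VEDS male peaks. Its promoter peak had its summit 81 bp upstream of the start in the control female and 82 bp upstream in the VEDS male list. The summit held 28 fragments at 7.84-fold over the local background in the control female library, and 72 fragments at 8.06-fold in the VEDS male library. The Myh11 promoter summits of the lists thus differed by 1 bp. The 3 other control female peaks lay 1.8 kb into intron 1, in intron 2 and in intron 3, and the intron 2 summits, 18.6 kb into the gene, coincided exactly between lists. CArG matches lay at Myh11 only in regions of the VEDS male list, 965 bp upstream of the start and in intron 3, at ranks in the top 64.9 and 49.4 percent.

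Myl9 (chr2:156775420-156781658, plus strand) had the simplest locus. It held a single peak in the control female list and 2 in the VEDS male list, and the shared peak covered the start. This peak was 452 bp wide in the control female list, with 29 fragments at the summit and a rank in the top 22.7 percent. In the VEDS male list it was 1118 bp wide, the widest of all 156 peaks, with 93 fragments and a rank in the top 5.03 percent. It held a CArG box 117 bp upstream of the start that GENCODE gives, or 161 bp upstream of the RefSeq start. The DNA up to the GENCODE start is printed because Myl9 was the only one of the 8 members with a RefSeq promoter sequence at hand in which that sequence held a full CArG match, here in capitals.
Myl9 promoter, chr2:156775214-156775419 (plus strand): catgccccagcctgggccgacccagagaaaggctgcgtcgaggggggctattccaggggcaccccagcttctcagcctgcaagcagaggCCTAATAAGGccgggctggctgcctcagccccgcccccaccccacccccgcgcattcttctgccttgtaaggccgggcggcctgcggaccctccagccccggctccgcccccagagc
A sequence that differed from the CArG consensus by 1 base, CCTTGTAAGG, followed 55 bp upstream of the GENCODE start, in the control female window. The second Myl9 peak of the VEDS male list, 12.7 kb upstream, ranked in the top 97.4 percent, near the end of the list.

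Mylk (chr16:34745210-35002420, plus strand) is the longest of the 10 genes, at 257 kb, and encodes several proteins from different starts. Its principal start had no peak near it, the nearest being 27.4 kb away in both long lists. The Mylk promoter peak of both long lists lay instead at the most upstream annotated start, 39.8 kb before the principal one. It held 16 fragments at 9.54-fold in the control female library and 33 fragments at 10.3-fold in the VEDS male library. The VEDS male list alone also held a peak at an internal annotated start in intron 17, in the top 96.9 percent. Apart from a region of intron 1 in both long lists, the remaining regions lay in the distal part of the gene or beyond it, from intron 11 onward. The peak of intron 15, 137 kb downstream of the principal start, held 100 fragments in the VEDS male library, the deepest summit of that library at the 10 loci. This peak ranked in the top 2.85 percent. Its control female counterpart ranked in the top 41.9 percent. The order of the Mylk peaks was not the same in both lists, since the strongest of them in the control female list was in intron 11 (top 13.0 percent), which ranked in the top 20.4 percent in the VEDS male list.

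Mylk had 4 CArG matches in summit windows, more than any other member. They lay in introns 15, 16, 18 and 21, and all but that of intron 16 lay in peaks of both lists. The MEF2 match of intron 18 was 1 of only 2 MEF2 matches found in windows of both lists. AP-1 matches lay in intron 1, in windows of both lists, and in intron 17 beside a VEDS male peak. A region in intron 30 was also shared, in the top 17.0 percent of the control female and the top 26.1 percent of the VEDS male list.

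The thin filament and its binding proteins were read from Acta2, smooth muscle α-actin, Tagln (SM22α) and Cnn1 (calponin), which bind actin filaments, and Lmod1 (leiomodin), which starts new filaments. Acta2 (chr19:34241090-34255590, minus strand) had 2 control female and 7 VEDS male peaks. The promoter peak held 29 fragments at 8.003-fold in the control female library and 94 fragments at 10.99-fold in the VEDS male library, and ranked in the top 20.1 and the top 3.77 percent of these lists. A peak 10 kb upstream, the place of the paired CArG and AP-1 matches, ranked beside the promoter peak in the control female list and below it in the VEDS male list. It held 23 fragments at 9.85-fold in the control female library, top 19.6 percent, and 76 fragments at 11.9-fold in the VEDS male library, top 5.72 percent. The VEDS male summit lay inside the CArG box, 3 bases from its midpoint, and the control female summit lay 40 bases from that midpoint. Acta2 thus had no region in the control female list other than its promoter and this upstream one.

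By GENCODE both summits of the Acta2 promoter peak fall inside the transcript, in its 5′ untranslated region. The RefSeq start, however, is 217 bp further downstream, so that the same summits lie 163 bp (control female) and 79 bp (VEDS male) upstream of it. No full CArG match was in these windows. There were 2 sequences that differed from the consensus by 1 base, 84 and 34 bp upstream of the RefSeq start, inside both peaks. They are shown because they lie in the promoter summit windows of both lists, with the 10 bases in capitals. The VEDS male summit lay inside the first of them, and the control female summit lay in neither.
Acta2, chr19:34255438-34255467 (minus strand): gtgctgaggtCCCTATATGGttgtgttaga
Acta2, chr19:34255388-34255417 (minus strand): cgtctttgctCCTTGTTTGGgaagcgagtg
Sequences this close to CArG are common, and a window with a full match or with 1 mismatch made up 22.2% of all control female windows and 23.1% of all VEDS male windows.

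Tagln (chr9:45929619-45936058, minus strand) and Cnn1 (chr9:22099216-22109630, plus strand) each had 5 peaks in both long lists, and every one of them was shared. At Tagln 3 of the 5 lay at promoters of the neighbouring genes Pcsk7 and Sidt2, and at Cnn1 2 of the 5 lay at Ecsit and Elof1. The Tagln promoter peak held 26 fragments at 6.12-fold in the control female library and 75 fragments at 7.31-fold in the VEDS male library. It held CArG boxes 11 bp after and 112 bp before the start. The control female summit was 28 bp inside the transcript, close to the downstream box. The VEDS male summit was 120 bp inside it, so that its 300-bp window took in the downstream box but not the upstream one, although the peak itself covered both. Another CArG match, 16.0 kb downstream of the Tagln start, lay within 1 kb of a start of Pcsk7.

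Cnn1 had a peak at its start, with 26 fragments at 7.45-fold in the control female library and 72 fragments at 7.61-fold in the VEDS male library, and a smaller one 0.8 kb into intron 1. The intron 1 peak, which counted as a promoter peak by distance, was the one with the CArG box, 858 bp after the start of the principal transcript. It ranked in the top 73.3 percent of the control female and the top 44.1 percent of the VEDS male list, against the top 26.4 and 13.0 percent for the peak at the start. An AP-1 match lay in a shared peak 3.1 kb upstream.

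Lmod1 (chr1:135324807-135368065, plus strand) had the promoter peak of highest rank in the control female list, with 33 fragments at 10.0-fold in the top 10.4 percent. In the VEDS male library it held 75 fragments at 10.7-fold, in the top 7.07 percent. At Lmod1 8 of 11 regions were in both lists. They included 3 peaks of intron 1, a peak of exon 2 and a peak over the 3′ untranslated region with 2 AP-1 matches. Another 2 lay at promoters of the neighbouring genes Timm17a and Shisa4. The CArG box lay in intron 1, 34.4 kb after the start. Its midpoint was 25 bases from the summit in the control female and 20 bases in the VEDS male library. Upstream of the Lmod1 start the promoter windows held 2 sequences with 1 mismatch to CArG, at 183 and 158 bp by GENCODE.

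The filament and anchoring genes were Smtn (smoothelin), an actin-binding protein of contractile smooth muscle, Des (desmin), the muscle intermediate filament, and Synpo2 (synaptopodin 2, also called myopodin), an actin-bundling protein. Smtn (chr11:3517523-3540612, minus strand) had 4 control female and 8 VEDS male peaks. Its promoter peak held 28 fragments at 6.26-fold in the control female library and 69 fragments at 5.84-fold in the VEDS male library. A second promoter peak lay 2.2 kb upstream of the principal start in both lists, near another annotated start. A further peak 3.9 kb upstream was in the VEDS male list alone, with 61 fragments at 6.70-fold. It ranked in the top 19.5 percent there, beside the top 19.7 percent for the promoter peak. No window at Smtn held a CArG match, and its MEF2 and AP-1 matches all lay in windows of the VEDS male list.

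Des (chr1:75360329-75368579, plus strand) differed from the other 9 genes in that no peak of either long list covered any of its starts. The only control female peak of the locus was 12.8 kb upstream, with 14 fragments at 5.31-fold, in the top 69.1 percent of the list. The same region ranked in the top 23.6 percent of the VEDS male list, with 52 fragments, and its summit was at the same base. It held the second MEF2 match found in windows of both lists, printed here with the match in capitals.
Des, upstream, chr1:75347409-75347438 (plus strand): tcctatacagCTATAAATAGcagcttgtgc
The VEDS male list added 6 peaks at Des. The one nearest the start had its edge 748 bp away, held 19 fragments and ranked in the top 69.1 percent, and 2 lay at Speg, the next gene. No peak of either list lay between the start and the end of Des itself.

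Synpo2 (chr3:123076519-123236149, minus strand) held 36 of the 108 regions, the most of any member, with 10 control female and 35 VEDS male peaks. It has a long first intron, in which 23 of these regions lay. Its promoter peak was among the weaker ones, with 10 fragments at 4.43-fold in the control female library, top 88.9 percent, and 39 fragments at 7.72-fold in the VEDS male library, top 27.8 percent. The strongest Synpo2 peak of both lists lay instead in intron 1, 107 kb into the gene, with its summit at the same base. It held 28 fragments at 8.98-fold in the control female library, top 17.3 percent, and 71 fragments at 10.4-fold in the VEDS male library, top 8.39 percent. Of the Synpo2 regions, 26 were in the VEDS male list alone, and they included 3 at internal annotated starts. In the VEDS male list 5 of the 9 MEF2 matches of all members were at Synpo2, and 2 of them overlapped each other in a repeat of its 3′ untranslated region, in the peak ranked in the top 99.9 percent.

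Across the 10 genes most control female peaks had a partner in the longer VEDS male list. Of the 51 control female peaks 48 overlapped a VEDS male peak by at least 1 bp, or 94.1% (95% Wilson interval 84.1 to 98.0). In the whole control female list it was 95.04%. Of the 105 VEDS male peaks 48 overlapped a control female peak, or 45.7% (36.5 to 55.2), beside 47.6% of the whole VEDS male list. Both shares of the whole lists lie within the intervals of the members. The 3 control female peaks without a partner were in introns of Lmod1, Mylk and Synpo2, in the top 89.4 to 97.9 percent, the weak end of their list. The 57 VEDS male peaks without a partner ranged from the top 19.5 to the top 99.9 percent, with a median of 70.5, against a median of 22.2 for the 48 with one. At the summit they held a median of 23 fragments, against 52.

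Of the 48 shared regions 45 ranked higher in the VEDS male list, or 93.8%, beside 87.3% of all overlapping peaks. Since the lists differ in length, a higher rank is not a higher level. The 3 shared regions that ranked higher in the control female list were intron 11 and intron 30 of Mylk and the Sidt2 promoter beside Tagln. Spearman's rho of the ranks over the 48 regions was 0.70, beside 0.79 over 20126 overlapping peaks of the whole control female list; regions of 1 gene share a locus and were not taken as independent. Summits in both lists were a median of 40.5 bp apart, and 29 of the 48 pairs lay within 50 bp. At Myh11, Des and Synpo2 a non-promoter region had its summit at the same base in both lists.

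**Figure D3:**
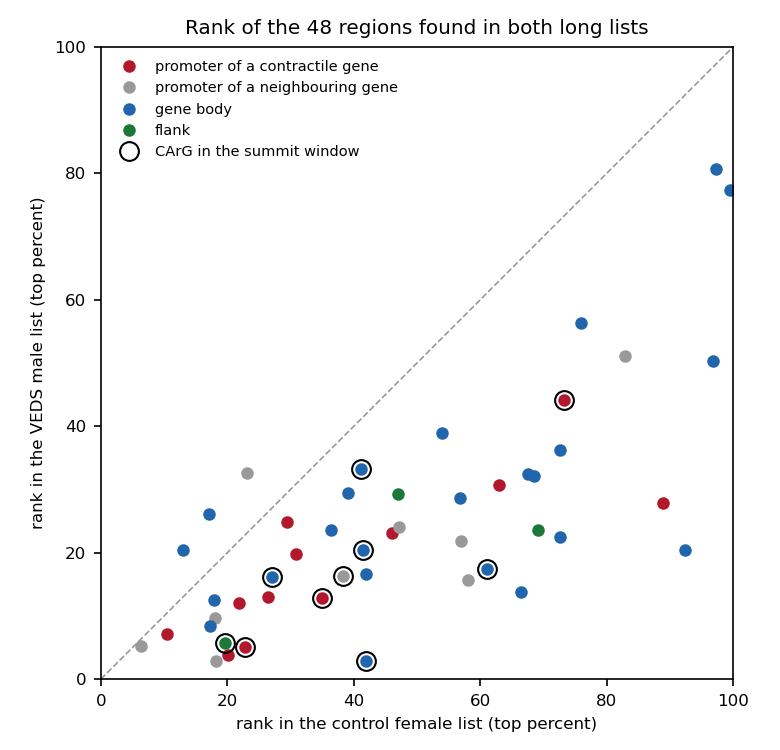
Rank of each of the 48 regions found in both long lists, as top percent in the control female list (x axis) and in the VEDS male list (y axis); lower is stronger, the dashed line marks equal rank, color gives the place of the region, and circles mark a CArG match. All but 3 points lie below the line, and the circled points sit between 19.6 and 73.3 percent on the x axis and between 2.85 and 44.1 percent on the y axis.

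The contractile loci were not among the very strongest peaks of either list. In the control female list 0 of the 51 peaks were in the top 5 percent and 1 in the top 10 percent, that at the Ecsit promoter beside Cnn1. In the VEDS male list 3 of 105 were in the top 5 percent, at the Acta2 promoter, at intron 15 of Mylk and at the Timm17a promoter beside Lmod1. The median promoter peak of a member was in the top 30.1 percent of the control female and the top 29.3 percent of the VEDS male list. Peaks inside the genes were weaker, with medians at 61.1 and 48.2 percent. The width was ordinary, with a median of 245 bp in the control female list (all peaks, 249) and 294 bp in the VEDS male list (all peaks, 287). Summits held a median of 19 fragments in the control female list (range 5 to 33) and 32 in the VEDS male list (range 7 to 100), where samples of 500 peaks of each whole list had medians of 14 and 21.

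CArG matches made up a larger share of the windows at these loci than in the whole lists. A match was in 10 of 51 control female windows, or 19.6% (11.02 to 32.5), beside 3.02% of all windows of that list. It was in 15 of 105 VEDS male windows, or 14.3% (8.85 to 22.2), beside 3.09%. Leaving out windows within 1 kb of any annotated start, the share was 5 of 29, or 17.2%, in the control female list (4.24% of all such windows) and 9 of 70, or 12.9%, in the VEDS male list (3.9%). The intervals cover counting error only, and windows of 1 gene are not independent of each other. The matches came from 7 genes in the control female list and from 8 in the VEDS male list. Smtn and Des had none in the windows of either list, and Myh11 had none in those of the control female list. Without Mylk, which held the most, the share was 17.1% in the control female list and 12.5% in the VEDS male list.

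The share with CArG was larger among the stronger peaks of both lists, with intervals that overlap those over all peaks. Among peaks with −log10 q of at least 10 it was 8 of 25, or 32.0%, in the control female list and 13 of 62, or 21.0%, in the VEDS male list, while in the whole lists it was 2.68% and 3.21% at that threshold. Of the 48 regions in both lists 10 held a match (20.8%, 11.7 to 34.3), and of the 57 in the VEDS male list alone 5 did (8.77%, 3.81 to 18.9), intervals that overlap. With 1 mismatch allowed, CArG was in 28 of 51 control female windows (54.9%, all windows 22.2%) and in 59 of 105 VEDS male windows (56.2%, all windows 23.1%).

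For MEF2 and AP-1 the shares of the whole lists lay within the intervals of the loci. MEF2 was in 2 of 51 control female windows, or 3.92% (1.08 to 13.2), beside 5.55% of all, and in 8 of 105 VEDS male windows, or 7.62% (3.91 to 14.3), beside 5.79%. AP-1 was in 4 of 51, or 7.84% (3.09 to 18.5), beside 11.6%, and in 11 of 105, or 10.5% (5.95 to 17.8), beside 11.6%. Further than 1 kb from any start MEF2 was in 2 of 29 control female windows (6.90%, all such windows 9.21%) and in 5 of 70 VEDS male windows (7.14%, all 7.92%). AP-1 was in 4 of 29 (13.8%, all 18.5%) and in 10 of 70 (14.3%, all 15.4%). Only 2 of the 9 MEF2 matches and 4 of the 12 AP-1 matches lay inside a peak of both lists, and 4 MEF2 and 2 AP-1 matches lay in a window but outside every peak.

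**Figure D4:**
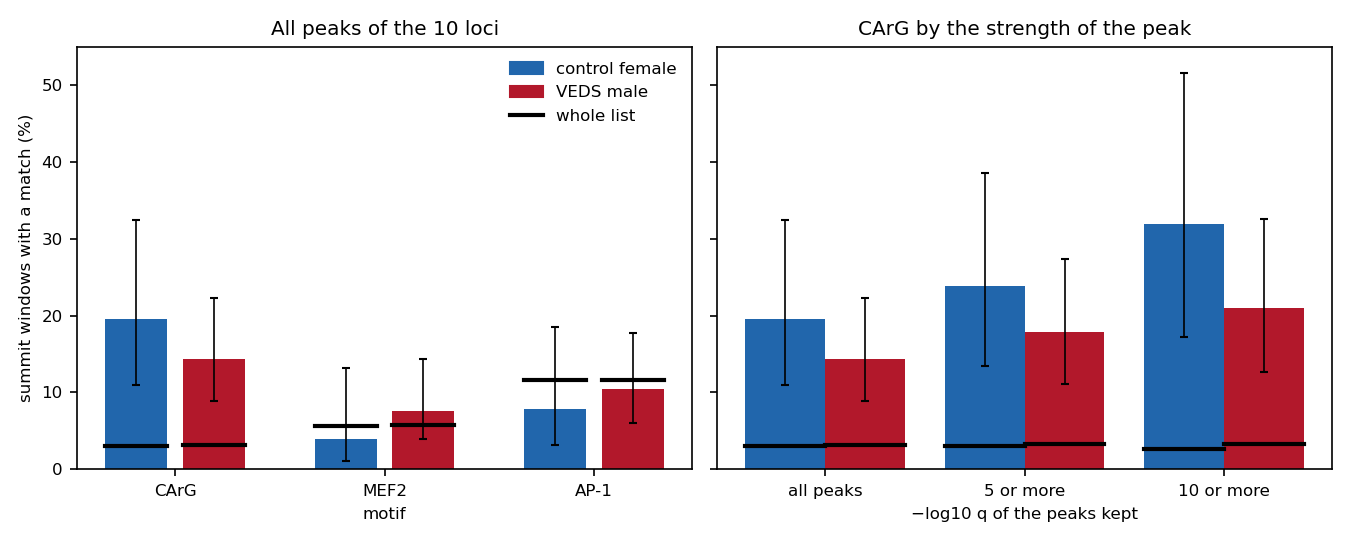
Share of 300-bp summit windows with a match (y axis, percent) at the 10 loci, for 3 motifs over all peaks (left) and for CArG by the −log10 q of the peaks kept (right); bars are libraries, error bars are 95% Wilson intervals over windows, and black lines give the share in the whole list. The CArG bars stand at 14.3% and above with intervals that start at 8.85% or higher, above the lines near 3%, and the MEF2 and AP-1 intervals take in the lines.

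RefSeq promoters, 250 bases before to 50 after a start on GRCm38.p6, were at hand for 8 of the 10 genes, the others being Myh11 and Tagln. A CArG match was in 1 of the 8, Myl9, beside 1.63% of 32851 promoters of all genes. MEF2 was in 1, Synpo2, beside 3.19%, and AP-1 in 1, Mylk, beside 5.2%. The Synpo2 and Mylk matches lay in no summit window, and the Mylk promoter of RefSeq is the start that had no peak. Tagln was not among the 8, and its CArG boxes 11 bp after and 112 bp before the start lie within such a span. Of the 16 full CArG matches in summit windows of the members, 9 were in introns, 5 upstream, 1 downstream and 1 in the 5′ untranslated region of Tagln. The midpoint of 7 of the 16 lay within 30 bases of a summit. Whole peaks held further matches. There CArG was in 11 of 51 control female peaks (7 genes, whole list 2.93%) and in 17 of 105 VEDS male peaks (9 genes, whole list 3.38%).

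Other parts of the contractile apparatus also had promoter peaks. A set of 24 further genes included the tropomyosins Tpm1, Tpm2 and Tpm4, the actin-binding Cald1 and Vcl, and subunits of myosin phosphatase. Of these 24, 20 had a promoter peak in the control female list and 23 in the VEDS male list. Over all protein-coding genes the shares were 44.9% and 55.5%. The 4 without one in the control female list were Actg2, the enteric smooth muscle actin, Cnn2, Flna and Ppp1r14a, and Cnn2 alone had none in the VEDS male list. Of 15 sarcomere genes of heart and skeletal muscle 1 had a promoter peak in the control female list, Mylpf, and 2 in the VEDS male list, Mylpf and Ckm. Both short lists held 0 of the 24 and 0 of the 15.

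Markers of other aortic cells are given beside the 44.9% of all protein-coding genes with a promoter peak in the control female list and the 55.5% in the VEDS male list. Of 6 endothelial genes 0 had one in the control female list and 3, Tek, Tie1 and Vwf, in the VEDS male list. Of 6 fibroblast genes Col1a1 and Pdgfra had one in both long lists, and of 6 adipocyte genes Fabp4 did. Of 6 immune genes 0 had one in any list. Cdh5, Egfl7 and Pecam1, the other endothelial genes, had none in either long list. A promoter peak reports accessibility, not expression, and the part of other cells in the peaks at the 10 loci was not tested.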

How the data were processed

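The peak lists were used as deposited. The authors aligned ATAC-seq reads to mm10 (GRCm38), removed duplicates by barcode, corrected for the Tn5 cut site, called narrow peaks per library with MACS2 and left out blacklisted regions. The aligner and the threshold are not given in the sources used here. The deposited score, fold enrichment (a ratio to the local background) and −log10 p and −log10 q are those of the authors' peak caller. A score is 10 times the −log10 q. The lists hold no read totals, so the sequencing depth is unknown.

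Peaks were placed with GENCODE vM21. Fragments at each summit were solved for as an integer from 2 deposited columns, fold enrichment and −log10 p. A Poisson model was used with a pseudocount of 1 and a tolerance of 0.01 in −log10 p. The integer is the pile-up of the caller. The sources used here do not say whether whole fragments or cut ends were piled up. Motifs were searched in 300-bp windows of the GRCm38.p6 sequence, and RefSeq starts and promoters are of that build. These steps were tested on simulated data. Intervals are Wilson intervals at 95%. Python 3.11.15, pandas 2.3.3, NumPy 2.4.6, SciPy 1.17.1, pysam 0.24.0 and samtools 1.23.1 were used.

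The named genes are all 10 members, each with its best promoter peak. Other peaks and motif matches are described for a selection only. The members, motifs and lists were chosen with earlier results of these data known. Alternative thresholds, list lengths, flanks, windows and overlaps, and lists without each library, were tried. The peaks at the promoters of neighbouring genes, repeats, Synpo2 and Mylk were left out in alternatives chosen after seeing the data. A further marker list is not reported here.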

Additional observations from a re-analysis of the deposited data

How the results depend on the processing

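Of 192 alternative values of 24 results, 154 stayed within 1.5 times the count or within the interval of the share and 38 moved. Some of the 154 could not have moved. A list with 0 locus peaks keeps 0 when peaks are removed, and leaving such a list out changes no merged peak. Cutting to 21176 peaks leaves the control female list whole. The tally is therefore not a measure of robustness. The values that moved follow. Keeping peaks with −log10 q of at least 10 left 25 control female and 62 VEDS male peaks, 1 control female gene with MEF2 and 1 with AP-1. At −log10 q of at least 5 and at least 10, 100% of control peaks overlapped a VEDS peak. The 504 highest peaks of each list held 0 locus peaks and 0 promoter peaks of the members. With both long lists cut to 21176 peaks, the VEDS male list held 58 locus peaks, and 75.9% of VEDS peaks overlapped a control peak. A flank of 0 kb left 69 VEDS male peaks. It left 1 control female and 2 VEDS male genes with MEF2, and 2 and 3 genes with AP-1. A flank of 50 kb added 1 VEDS female peak, near Des. With 1 mismatch, CArG was in 54.9% of the windows in the control female list and in 56.2% in the VEDS male list. MEF2 was then in 23.5% (6 genes) and 27.6% (8 genes), and AP-1 in 64.7% and 65.7% (10 genes each), beside whole-list shares of 25.0%, 27.2%, 55.1% and 57.6%. Over whole peaks MEF2 was in 3.81% of VEDS male peaks (whole list 5.90%). In 150-bp windows the VEDS male shares were 8.57% for CArG (whole list 1.96%), 1.90% for MEF2 (2 genes, whole list 3.51%) and 5.71% for AP-1 (whole list 8.57%). In each alternative for which the whole lists were searched as well, the CArG share at the loci was above that of the whole list. The side of the whole list on which the other shares lay did change: the MEF2 share of the VEDS male list was above it in 300-bp windows and below it over whole peaks and in 150-bp windows, that of the control female list was below it and turned above it at −log10 q of at least 10 (1 of 25 windows, whole list 3.50%) and in 150-bp windows (3.92%, whole list 3.28%), and AP-1 was below it and turned above it with 1 mismatch in both lists. Without Synpo2, an alternative chosen after seeing the data, 55.7% of VEDS peaks overlapped a control peak.

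Leaving out each library in turn gave 0 to 51 merged control peaks and 0 to 105 merged VEDS peaks, with 0 without the control female (control replicate 1) or the VEDS male library (VEDS replicate 2). The share of control peaks that overlapped a VEDS peak ranged from 0% to 94.1%, and that of VEDS peaks from 0% to 45.7%. Each genotype's locus peaks thus came from a single library. The lists record only what passed the caller, so a region without a peak was not taken as closed. Depth limits how many peaks can be called, and the lists do not give it.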
